A study of Mus musculus with 6 samples.

Results

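The genes described here control the entry of pyruvate into the mitochondrion and its conversion to acetyl-CoA in the mouse heart. They are the pyruvate dehydrogenase kinases Pdk1, Pdk2, Pdk3 and Pdk4, the pyruvate dehydrogenase phosphatases Pdp1 and Pdp2, the enzyme subunits Pdha1 and Pdhb, and the mitochondrial pyruvate carrier subunits Mpc1 and Mpc2. These 10 genes were taken by name for their function, with earlier results of these data known. They came out of 20014 features tested on the array, of which 13186 carried a gene symbol. All 10 had a probe that passed the filter on dim signal, and together they had 15 probes. RNA from whole hearts was hybridised in 1 colour to Agilent arrays, 1 array per heart, with 3 hearts in each group. The KO-labelled hearts came from C57/B6 mice aged 8 weeks of genotype PHD2/3f/f; Cre+/-, which carry floxed alleles of both prolyl hydroxylases and Cre. The control hearts came from C57/B6 mice aged 8 weeks of genotype PHD2/3f/f; Cre-/-, with the same floxed alleles and no Cre, so both groups are floxed. The labels call the hearts biological replicates, and name neither the promoter that drives Cre, nor an inducer, nor the exons removed, which limits what the KO label can stand for.

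Pyruvate made by glycolysis crosses the inner mitochondrial membrane through a carrier built from Mpc1 and Mpc2. The pyruvate dehydrogenase complex then turns it into acetyl-CoA. Pdha1 and Pdhb encode the alpha and beta subunits of its first enzyme; the kinases phosphorylate the alpha subunit and switch the complex off, and the phosphatases remove the phosphate and switch it on. In heart, Pdk4 is known for rising when fatty acids are the main fuel, and Pdk1 is known as a target of the hypoxia-inducible factors (HIF), which PHD2 and PHD3 mark for destruction when oxygen is present. The arrays measured mRNA, so the phosphorylation and activity of the enzyme were not measured.

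Levels below are log2 of the processed signal relative to the 75th percentile of the same array, and a difference is KO-labelled minus control on that log2 scale with its standard error. A gene was called changed at an adjusted p under 0.05 in limma, fitted across all 20014 features. By that rule 2 of the 10 genes rose, 7 fell and 1, Pdk4, did not pass. Changes were frequent on these arrays: 39.1% of all features passed, 16.1% as higher and 23.0% as lower, so the share of members is read against that background. The counts rest on some hearts: 3987 features passed without control replicate 1, 4123 without control replicate 3 and 5142 without KO replicate 3, against 7817 with all hearts. The values of KO-labelled and control hearts did not overlap for any of the 10 genes, as was so for 55.9% of all features. Before scaling between arrays the values of Pdk4 did overlap, and the share over all features was not counted there. The median difference of the 10 genes was -1.25, against -0.11 for all features. The genes were chosen with earlier results of these data known, so these comparisons with all features are descriptions and not tests. For 1 gene and 3 hearts a group, 0.1 is the smallest p that a two-sided exact permutation test allows, and all 10 genes had that value.

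**Figure D1:**
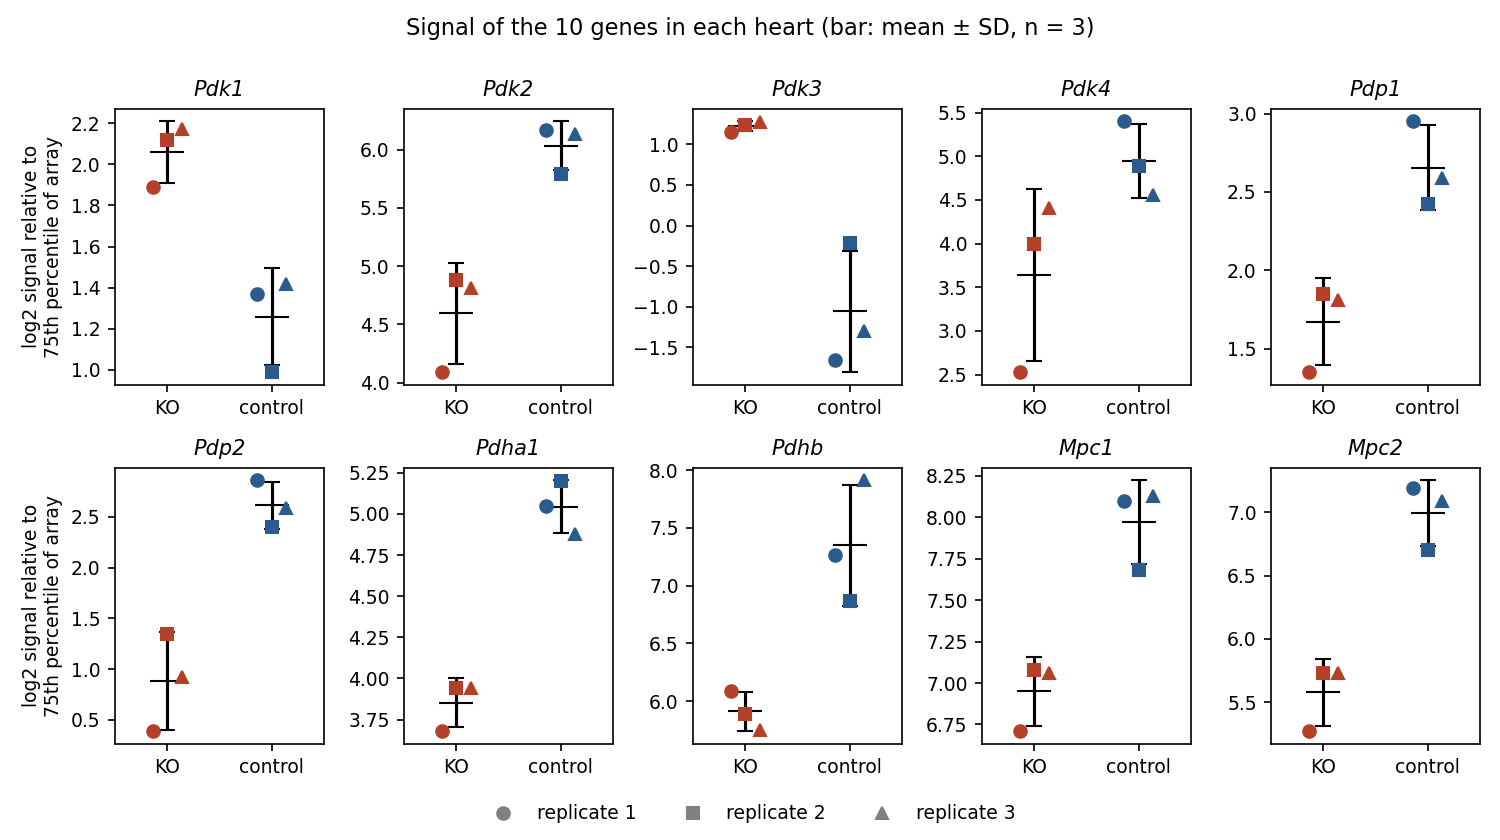
Level of each of the 10 genes in each heart, as log2 signal relative to the 75th percentile of the array (vertical axis), with KO-labelled hearts left of control hearts in each panel, a symbol for each of the 3 hearts, bars for mean ± SD and a vertical range of its own in each panel. Pdk1 and Pdk3 lie higher in all 3 KO-labelled hearts, the other 8 genes lie lower, and Pdk4 has the widest spread among KO-labelled hearts, between 2.53 and 4.41.

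The labels were first set beside the genes they name. Egln1, the gene of PHD2, read -0.39, 0.29 and 0.06 in KO-labelled hearts, against 1.27, 1.39 and 0.99 in control hearts, a difference of -1.23 ± 0.21 (adjusted p = 0.00652). Egln3, the gene of PHD3, read 4.24, 4.62 and 4.77 in KO-labelled hearts, against 2.57, 2.44 and 2.69 in control hearts, a difference of 1.98 ± 0.17 (adjusted p = 0.00165). Egln1 was thus lower and Egln3 higher in the KO-labelled hearts, and the second goes against the label at face value. On the cardiomyocyte scale described further on, Egln1 differed by -0.48 and lost the call (limma adjusted p = 0.101), and Egln3 differed by 2.72. Where the Egln3 probe lies relative to the floxed part was not given, so it may check nothing, and each direction below is that of the label. Probes well above background numbered 25761 to 28339 per array (46.3% to 51.0%), and none of the 10 genes had a saturated spot. The KO-labelled arrays and the control arrays lay in different columns of 1 slide, so position and group cannot be told apart.

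Cell markers moved with the groups. Of 7 cardiomyocyte markers 6 were lower and none was higher in KO-labelled hearts, with a summed scaled signal of 4480 to 5410 in KO-labelled hearts and 6640 to 9060 in control hearts. Of 7 fibroblast markers 5 were higher and none was lower, with sums of 989 to 1130 in KO-labelled hearts and 387 to 719 in control hearts. Of 6 macrophage markers tested 4 were higher and 1 was lower, with sums of 119 to 191 in KO-labelled hearts and 61.5 to 97.2 in control hearts. These are bulk samples, so fewer cells of a type and less RNA per cell cannot be told apart. The part of these markers in the results was not tested, and the 10 genes are given on a cardiomyocyte scale further on.

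The kinases split. Pdk1, the kinase known for its response to HIF, read 1.89, 2.12 and 2.17 in KO-labelled hearts, against 1.37, 0.99 and 1.42 in control hearts. All 3 KO-labelled hearts lay above all control hearts, and Pdk1 rose by 0.80 ± 0.16 (95% interval 0.41 to 1.18, adjusted p = 0.0113), which is 1.74-fold. Pdk3, an X-linked kinase, read 1.15, 1.24 and 1.27 in KO-labelled hearts, against -1.65, -0.22 and -1.30 in control hearts. The KO-labelled hearts lay close together and the control hearts spread widely, with control replicate 2 above the other two. The summed fibroblast markers were 1130, 989 and 1070 in KO-labelled hearts and 436, 719 and 387 in control hearts. They too were highest among controls in replicate 2, as were the sums of macrophage, epithelial, and smooth muscle and pericyte markers. The sums of the other cell types were not highest there, and the part of any of these markers in Pdk3 was not tested. Pdk3 rose by 2.28 ± 0.35 (95% interval 1.44 to 3.11, adjusted p = 0.00515), which is 4.85-fold. Its processed signal was 523, 441 and 478 in KO-labelled hearts and 47, 172 and 60 in control hearts, and with normexp background correction, which treats dim signal differently, the difference was 1.70.

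Pdk2, a kinase abundant in many tissues including heart, read 4.09, 4.88 and 4.81 in KO-labelled hearts, against 6.17, 5.79 and 6.14 in control hearts. Every KO-labelled heart lay below every control heart, with KO replicate 1 the lowest. Pdk2 fell by 1.44 ± 0.24 on the log2 scale (95% interval -2.02 to -0.87, adjusted p = 0.00649), so it was 2.72-fold lower. Pdk4, the kinase known for rising in fasting, read 2.53, 3.99 and 4.41 in KO-labelled hearts, against 5.40, 4.89 and 4.56 in control hearts. The groups did not overlap on this scale, with KO replicate 3 just under control replicate 3, but before scaling they did, at signals of 4199 in KO replicate 3 and 3482 in control replicate 3. The difference in Pdk4 was -1.31 ± 0.49 (95% interval -2.48 to -0.13), and it missed the threshold (adjusted p = 0.0752). The size of the Pdk4 difference depended on single hearts: it was -1.69 and passed without KO replicate 3 (adjusted p = 0.0481), and it was -0.75 without KO replicate 1.

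The promoters of the kinases are shown because the family's members differed in direction. Each is the RefSeq window from 250 bases before to 50 bases after the gene's start in GRCm38.p6, 5′ to 3′ on the gene's strand. Capitals mark ACGTG or GCGTG on either strand, the core letters that HIF is known to bind. The windows lie at chr2:71872974-71873273 (plus strand) for Pdk1, chrX:93832101-93832400 (minus strand) for Pdk3, chr11:95041322-95041621 (minus strand) for Pdk2 and chr6:5496229-5496528 (minus strand) for Pdk4.
Pdk1: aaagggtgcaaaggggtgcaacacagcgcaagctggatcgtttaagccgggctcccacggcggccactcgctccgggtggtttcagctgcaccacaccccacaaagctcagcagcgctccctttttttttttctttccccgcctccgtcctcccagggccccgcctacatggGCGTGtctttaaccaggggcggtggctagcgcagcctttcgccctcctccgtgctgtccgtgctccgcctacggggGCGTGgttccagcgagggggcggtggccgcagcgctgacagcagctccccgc
Pdk3: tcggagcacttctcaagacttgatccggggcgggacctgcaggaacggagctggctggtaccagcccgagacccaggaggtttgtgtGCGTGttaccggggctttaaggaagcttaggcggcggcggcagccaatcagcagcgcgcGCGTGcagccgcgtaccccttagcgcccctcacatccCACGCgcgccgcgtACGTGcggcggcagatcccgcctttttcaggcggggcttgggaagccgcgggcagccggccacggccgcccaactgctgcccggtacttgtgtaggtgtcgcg
Pdk2: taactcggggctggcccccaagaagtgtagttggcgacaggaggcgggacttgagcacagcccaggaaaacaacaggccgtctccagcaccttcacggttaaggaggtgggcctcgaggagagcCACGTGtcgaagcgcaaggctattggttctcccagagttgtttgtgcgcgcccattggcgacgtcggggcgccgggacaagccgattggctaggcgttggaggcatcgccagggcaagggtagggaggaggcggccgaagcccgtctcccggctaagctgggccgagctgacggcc
Pdk4: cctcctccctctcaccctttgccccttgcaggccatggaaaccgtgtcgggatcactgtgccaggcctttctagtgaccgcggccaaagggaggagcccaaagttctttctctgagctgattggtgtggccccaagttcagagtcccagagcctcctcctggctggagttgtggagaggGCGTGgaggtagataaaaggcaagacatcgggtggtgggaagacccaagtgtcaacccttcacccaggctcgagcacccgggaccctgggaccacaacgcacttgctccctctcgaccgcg
Pdk1, which rose, held GCGTG at -78 and -2 from the start. Pdk3, which also rose, held ACGTG at -53, GCGTG at -163 and -104, and GCGTG on the opposite strand at -67. Pdk2, which fell, held a palindrome that reads ACGTG on both strands, at -126 and -125, and Pdk4 held GCGTG at -71. Of the 10 genes 9 had a promoter entry, Pdp1 being the one without, and all 9 held ACGTG or GCGTG, against 43.8% of 32851 promoters of the same length. The letters were thus present in genes that rose and in genes that fell. AGGTCA, the half-site letters of nuclear receptors such as the PPARs, was searched on both strands and stood in 0 of the 9 windows, against 16.3% of all promoters. The promoters compared were not matched to these genes for base content or signal, so neither share is read as an enrichment or a lack. A match is a description of these letters, not a site.

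Both phosphatases fell. Pdp1, the calcium-stimulated phosphatase, read 1.35, 1.85 and 1.81 in KO-labelled hearts, against 2.95, 2.42 and 2.59 in control hearts. The groups did not overlap, and Pdp1 fell by 0.98 ± 0.20 (95% interval -1.47 to -0.50, adjusted p = 0.0119), so it was 1.98-fold lower. Its other probes differed by -0.85 and -0.59 in a fit of every probe, both in the same direction. Pdp2, the phosphatase that does not depend on calcium, read 0.39, 1.35 and 0.92 in KO-labelled hearts, against 2.86, 2.40 and 2.59 in control hearts. All KO-labelled hearts lay below all control hearts, and Pdp2 fell by 1.73 ± 0.26 (95% interval -2.35 to -1.11, adjusted p = 0.00493), so it was 3.32-fold lower. A second, dimmer Pdp2 probe stood well above background on 0 of 3 KO-labelled and 3 of 3 control arrays, with signals of 7, 9 and 16 in KO-labelled hearts and 19, 26 and 22 in control hearts. It was kept only through the control hearts and gives a bound, at least 1.81-fold lower in KO-labelled hearts, against the lowest signal well above background on each array, or the probe's own where that was higher.

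The first enzyme's subunits fell together. Pdha1, the X-linked alpha subunit that the kinases phosphorylate, read 3.68, 3.94 and 3.94 in KO-labelled hearts, against 5.05, 5.20 and 4.88 in control hearts. The hearts of each group lay close together and the groups lay apart, and Pdha1 fell by 1.19 ± 0.14 (95% interval -1.53 to -0.86, adjusted p = 0.00305), so it was 2.28-fold lower. Pdhb, the beta subunit, read 6.09, 5.89 and 5.75 in KO-labelled hearts, against 7.26, 6.87 and 7.91 in control hearts. The groups did not overlap and control replicate 3 was the highest; Pdhb fell by 1.44 ± 0.27 (95% interval -2.08 to -0.79, adjusted p = 0.00905), so it was 2.71-fold lower. Its second probe differed by -1.28. Pdk3 and Pdha1 are X-linked, and the labels give no sex. Transcripts of the Y-linked genes Ddx3y, Eif2s3y and Uty were well above background on all 6 arrays, and Xist and the Y-linked gene Kdm5d on none; these genes were chosen after their values were seen.

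The carrier fell as well. Mpc1 read 6.71, 7.08 and 7.06 in KO-labelled hearts, against 8.10, 7.68 and 8.13 in control hearts. Every KO-labelled heart lay below every control heart, and Mpc1 fell by 1.02 ± 0.18 (95% interval -1.44 to -0.59, adjusted p = 0.00729), so it was 2.02-fold lower, with a second probe at -0.98. Mpc2 read 5.27, 5.73 and 5.73 in KO-labelled hearts, against 7.19, 6.70 and 7.09 in control hearts. Mpc2 fell by 1.42 ± 0.19 (95% interval -1.88 to -0.96, adjusted p = 0.00408), so it was 2.68-fold lower. The Mpc2 probe was spotted 10 times on each array, and the SD among its spots was 0.025 to 0.050 on the log2 scale, with 1 to 3 of the 10 spots left out as outliers on each control array. The SD between hearts was 0.26 in each group after percentile scaling, and 0.103 in KO-labelled and 0.0491 in control hearts before it. KO replicate 1 was the lowest of the KO-labelled hearts in 9 of the 10 genes after scaling and in 6 of the 10 before it. Its 75th percentile signal was 235, against 187 and 198 in KO replicates 2 and 3, so scaling lowered all its values the most. The same count over all features was not made, so this is not read as a trait of the 10 genes.

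**Figure D2:**
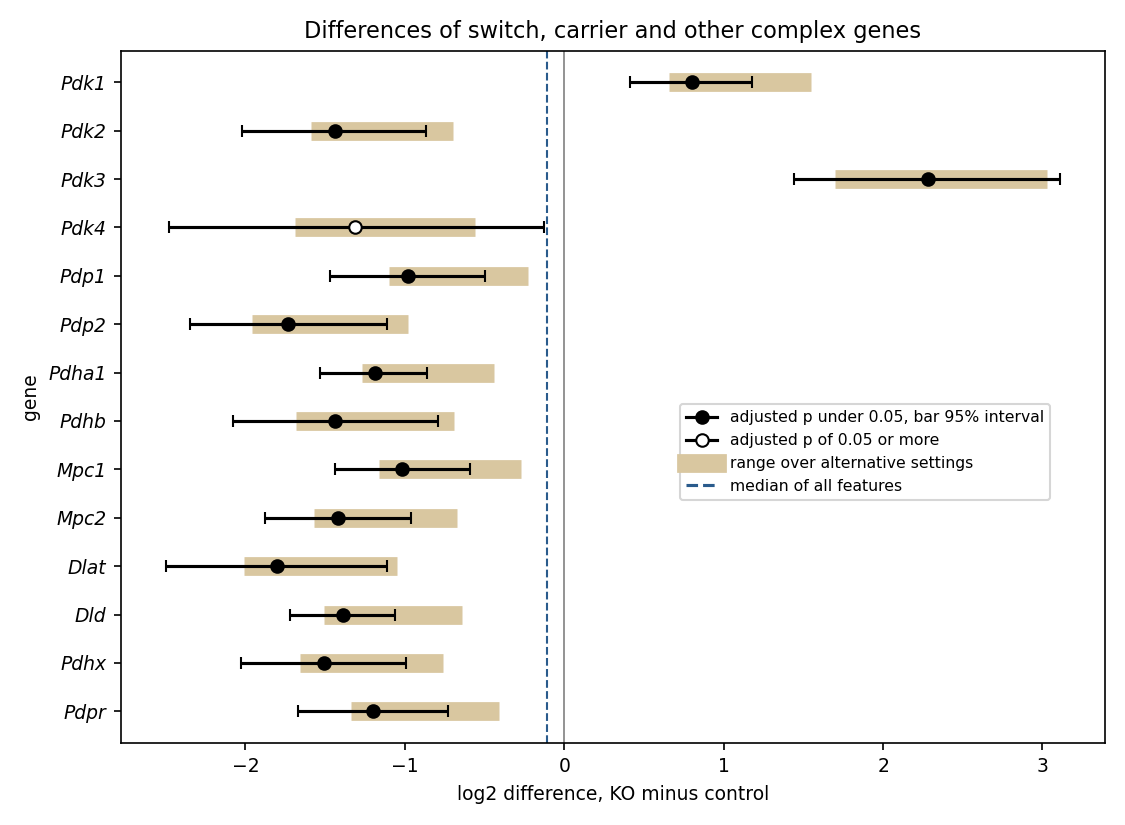
Difference between KO-labelled and control hearts in log2 units (horizontal axis) for the 10 genes, the complex subunits Dlat, Dld and Pdhx, and Pdpr. Bars give the 95% interval from limma, tan bands the range over the alternative settings and a dashed line the median of all features. Pdk1 and Pdk3 lie right of 0 at 0.80 and 2.28, the interval of Pdk4 runs from -2.48 to -0.13, and the other 7 of the 10 genes lie between -1.73 and -0.98.

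Because a ratio of 2 genes within an array does not depend on the scaling between arrays, 9 pairs of members of the same role were set against each other. Probes differ in brightness, so only the change of a ratio is read. The ratio of Pdk1 to Pdk2 was 2.24 higher on the log2 scale in KO-labelled hearts, which is 4.73-fold. The ratio of Pdk3 to Pdk4 was 3.58 higher, and that of Pdk2 to Pdk3 differed by -3.72, lower in KO-labelled hearts. By these values the kinase ratios moved towards Pdk1 and Pdk3, except that Pdk2 over Pdk4 differed by only -0.14 with overlapping hearts (exact permutation p = 0.7). Pdk1 over Pdk4 differed by 2.11 and Pdk1 over Pdk3 by -1.48, with no overlap. Among the phosphatases Pdp1 over Pdp2 differed by 0.75 and in the carrier Mpc1 over Mpc2 by 0.40, neither with overlap, while Pdha1 over Pdhb differed by 0.24 with overlap (exact permutation p = 0.7). The 7 pairs without overlap had the smallest p of a two-sided exact permutation test, 0.1, and 0.129 after Benjamini-Hochberg adjustment over the 9 pairs, so none passed. The sign of Pdk2 over Pdk4 and of Pdha1 over Pdhb depended on which heart was left out, with ranges of -0.44 to 0.14 and -0.12 to 0.56. A p of 0.7 does not show that the members of these pairs changed alike.

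**Figure D3:**
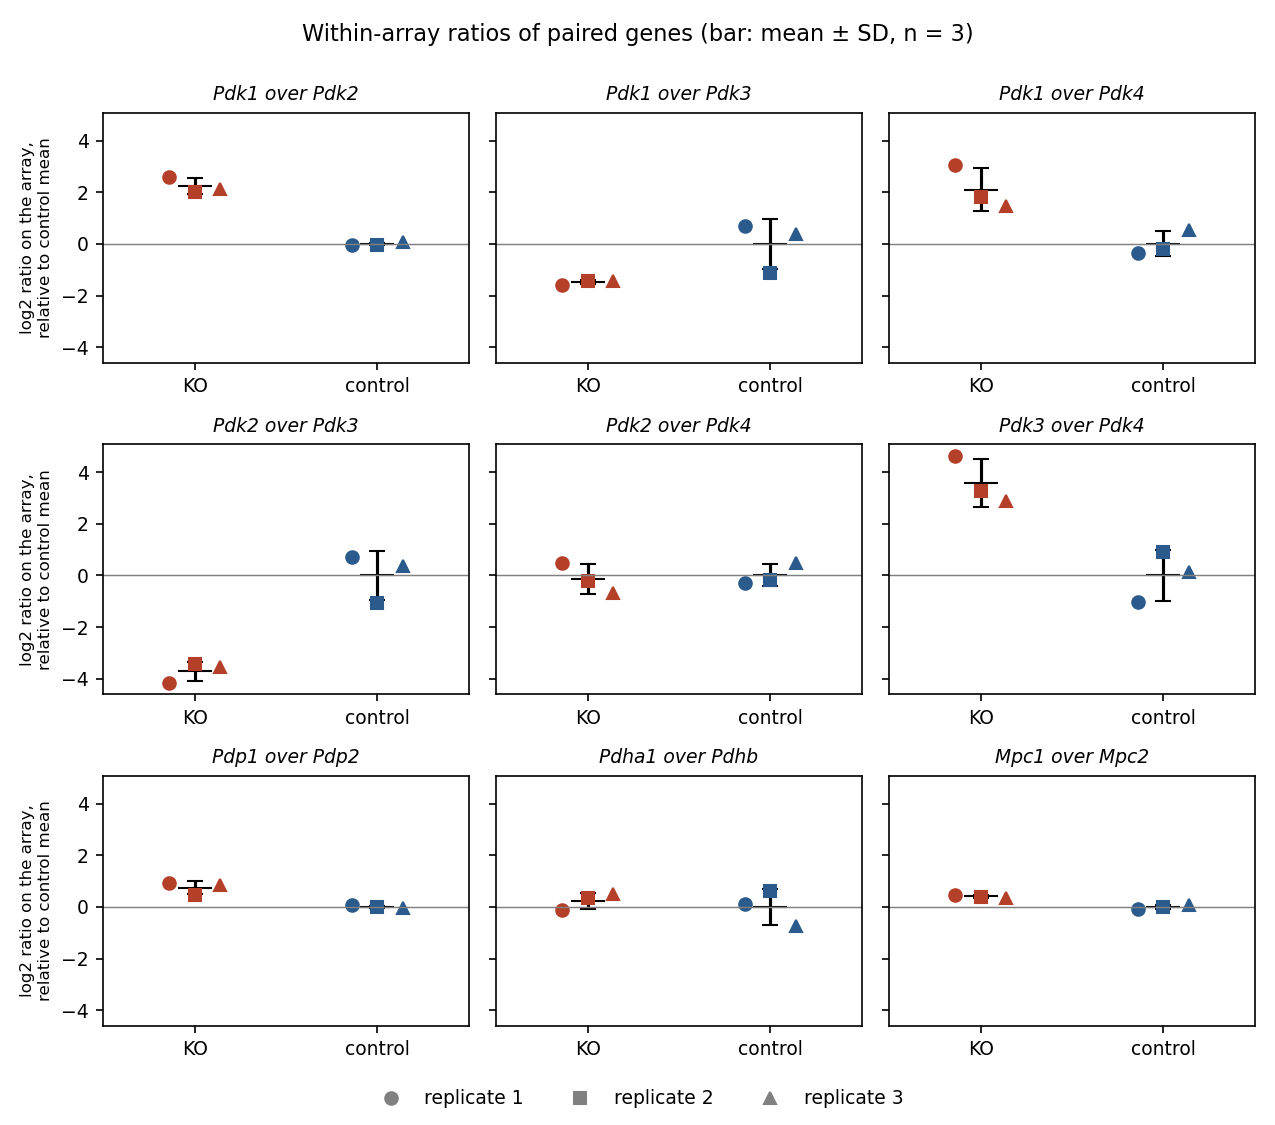
Within-array ratio of each pair of members, in log2 units relative to the mean of the control hearts (vertical axis), with a symbol for each of the 6 hearts, bars for mean ± SD and KO-labelled hearts left of control hearts. The ratios of Pdk1 to Pdk2 and of Pdk3 to Pdk4 lie above every control heart in all KO-labelled hearts, and Pdk2 over Pdk4 and Pdha1 over Pdhb overlap.

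The calls depended on the scale. Relative to the mean of the 7 cardiomyocyte markers, a scale chosen after the data were seen, the median of all features moved to 0.64. There 12482 features passed, 57.7% of all features as higher and 4.64% as lower. The 7 markers themselves differed unequally on the percentile scale, from -0.40 to -1.57, and how far the scale rests on single markers was not tested. On that scale 5 of the 10 genes passed: Pdk1 rose by 1.55 and Pdk3 by 3.03, and Pdk2, Pdp2 and Mpc2 differed by -0.70, -0.98 and -0.67. Pdp1 differed by -0.23 (adjusted p = 0.194), Pdha1 by -0.44 (adjusted p = 0.0885), Pdhb by -0.69 (adjusted p = 0.0595) and Mpc1 by -0.27 (adjusted p = 0.102), and these 4 lost the call. Pdk4 differed by -0.56 (adjusted p = 0.274). All 8 genes that were lower in KO-labelled hearts kept a negative sign on this scale. Changing the scale moved every difference by the same amount, so each gene kept its distance from the median of all features. The 8 genes below that median and Pdk1 and Pdk3 above it could therefore not change sides, and this adds nothing to the first scale.

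**Figure D4:**
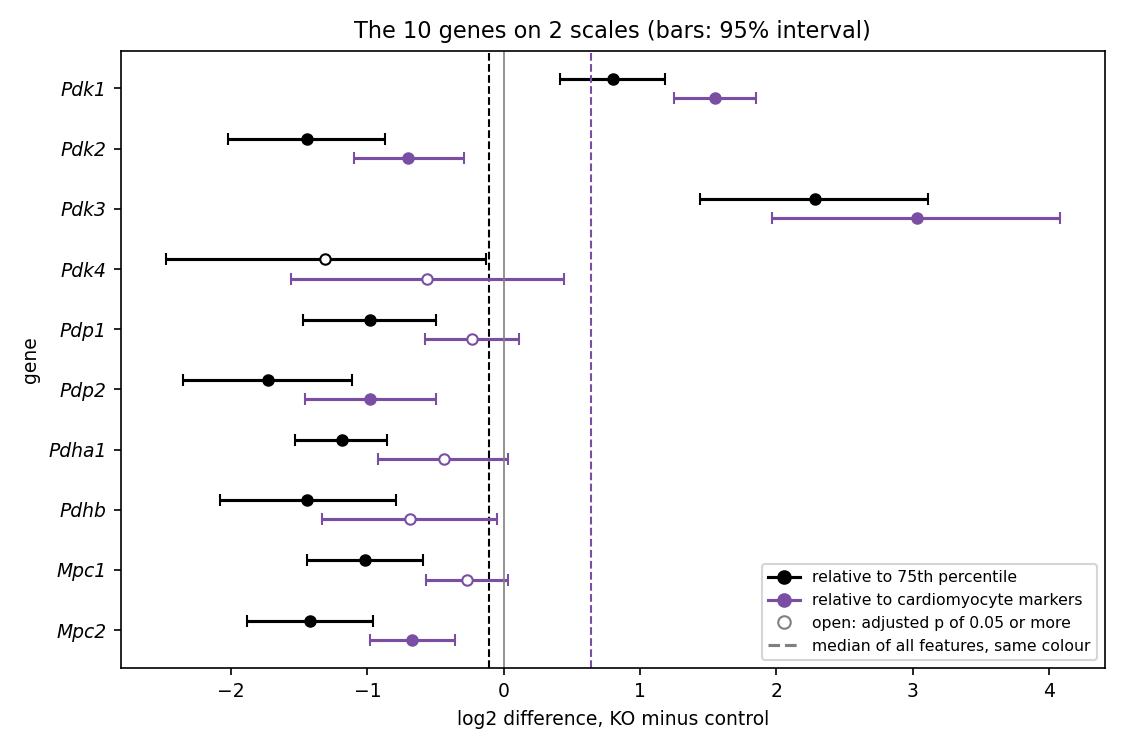
Difference between KO-labelled and control hearts for the 10 genes in log2 units (horizontal axis), relative to the 75th percentile (black) and to the cardiomyocyte markers (purple), with bars for the 95% interval and dashed lines for the median of all features. Pdp1, Pdha1, Pdhb and Mpc1 pass on the first scale and not on the second.

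The other proteins of the complex and its neighbours were read from lists. The other subunits of the complex fell. Dlat, the acetyltransferase, fell by 1.80 ± 0.29 and Dld, the dihydrolipoyl dehydrogenase, by 1.39 ± 0.14. Pdhx, the binding protein that anchors Dld, fell by 1.51 ± 0.22. Pdpr, a regulatory subunit of the phosphatase that was listed with them, passed with a difference of -1.20. Pdpr stood well above background on 1 of 3 KO-labelled and 3 of 3 control arrays, so its size is uncertain, and with normexp it was -0.41. The list's median was -1.45, and on the cardiomyocyte scale 3 of the 4 were lower, Pdpr not passing at -0.45. On that scale the median of all features was 0.64, with 57.7% of them higher and 4.64% lower. Of 11 genes for making and attaching lipoate, the cofactor of Dlat, 9 fell and none rose, with a median of -0.86; on the cardiomyocyte scale none was lower, 1 was higher and the median was -0.11. Lias, the lipoate synthase, differed by -0.95 and Isca1, an iron-sulfur assembly protein, by -1.16, with -0.20 and -0.41 on the cardiomyocyte scale.

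Pyruvate and lactate have other routes in the cell. Of 12 genes of these routes 2 rose, 6 fell and 4 did not pass, with a median of -0.75. Among the 6 was Slc16a1, named after its values were seen. It stood well above background on 1 of 3 KO-labelled and 3 of 3 control arrays, so its call is uncertain. On the cardiomyocyte scale 4 of the 12 were higher, 5 were lower and the median was 0, against 0.64 for all features. Of all features 57.7% were higher there and 4.64% lower. Slc16a3, a carrier that exports lactate, rose by 4.11 ± 0.53 and Me2, a mitochondrial malic enzyme, by 1.03 ± 0.12 (0.65 with normexp). Gpt and Gpt2, the alanine transaminases that link pyruvate to alanine, fell by 2.11 ± 0.23 and 1.65 ± 0.20. The lactate dehydrogenases, named after their values were seen, differed: Ldhb fell by 1.50 ± 0.26 and Ldha was 0.37 ± 0.14 higher without passing (adjusted p = 0.072).

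The sister complexes handle other keto acids with a similar architecture, and the branched-chain complex among them has a kinase and a phosphatase of its own. All 8 of their genes tested fell, with a median of -1.74. Bckdk, the kinase of the branched-chain complex, fell by 0.78, and its phosphatase Ppm1k by 1.92, both named after their values were seen. Bckdhb, a subunit of that complex, fell by 1.88. Dbt, its core subunit, passed with a difference of -1.97, but stood well above background on 1 of 3 KO-labelled and 3 of 3 control arrays, and with normexp it was -0.82. Dlst, of the oxoglutarate complex, fell by 1.19, and Ogdhl, a relative of that complex's first enzyme, fell by 3.35 (difference of -1.77 with normexp). On the cardiomyocyte scale 6 of the 8 were lower and none was higher, where 4.64% of all features were lower and 57.7% higher.

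Genes known to act on Pdk4 were compared because Pdk4 was the member that did not pass. Of 14 such regulators 7 fell, none rose and 7 did not pass, with a median of -0.79. On the cardiomyocyte scale 3 were higher, 2 were lower and the median was -0.05. The median of all features there was 0.64, with 57.7% higher and 4.64% lower. Ppargc1a, a coactivator, fell by 1.84, Ppara, a fatty acid receptor, by 1.57, Lpin1, a coactivator, by 1.31 and Esrrg, an orphan receptor, by 0.92; Lpin1 and Esrrg lost the call on the cardiomyocyte scale (differences of -0.56 and -0.18). Ppara lost its call without control replicate 1 (adjusted p = 0.0517) or 3 (adjusted p = 0.0509). Of 15 other PPAR target genes 11 fell and none rose, with a median of -1.74; on the cardiomyocyte scale 8 were lower and 2 were higher. Examples are Acadm, a fatty acid dehydrogenase, which fell by 2.09, and Hadha, a trifunctional protein subunit, which fell by 1.80. Of 15 other HIF target genes 5 rose, none fell and 10 did not pass, with a median of 0.31; on the cardiomyocyte scale 13 were higher and none was lower, where 57.7% of all features were higher and 4.64% lower. The 5 that passed on the percentile scale were Car9, a carbonic anhydrase, Slc2a1, a glucose transporter, at 1.22, Bnip3, a mitophagy receptor, at 1.08, Pgk1, a glycolytic enzyme, at 0.98, and Eno1, another, at 0.80, the last named to complete the count. Car9 stood well above background on 3 of 3 KO-labelled and 1 of 3 control arrays, with signals of 1179, 547 and 1008 in KO-labelled hearts and 14, 53 and 12 in control hearts. Its difference was 5.04, 3.01 with normexp and 3.26 in the deposited value table, so its size is uncertain.

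**Figure D5:**
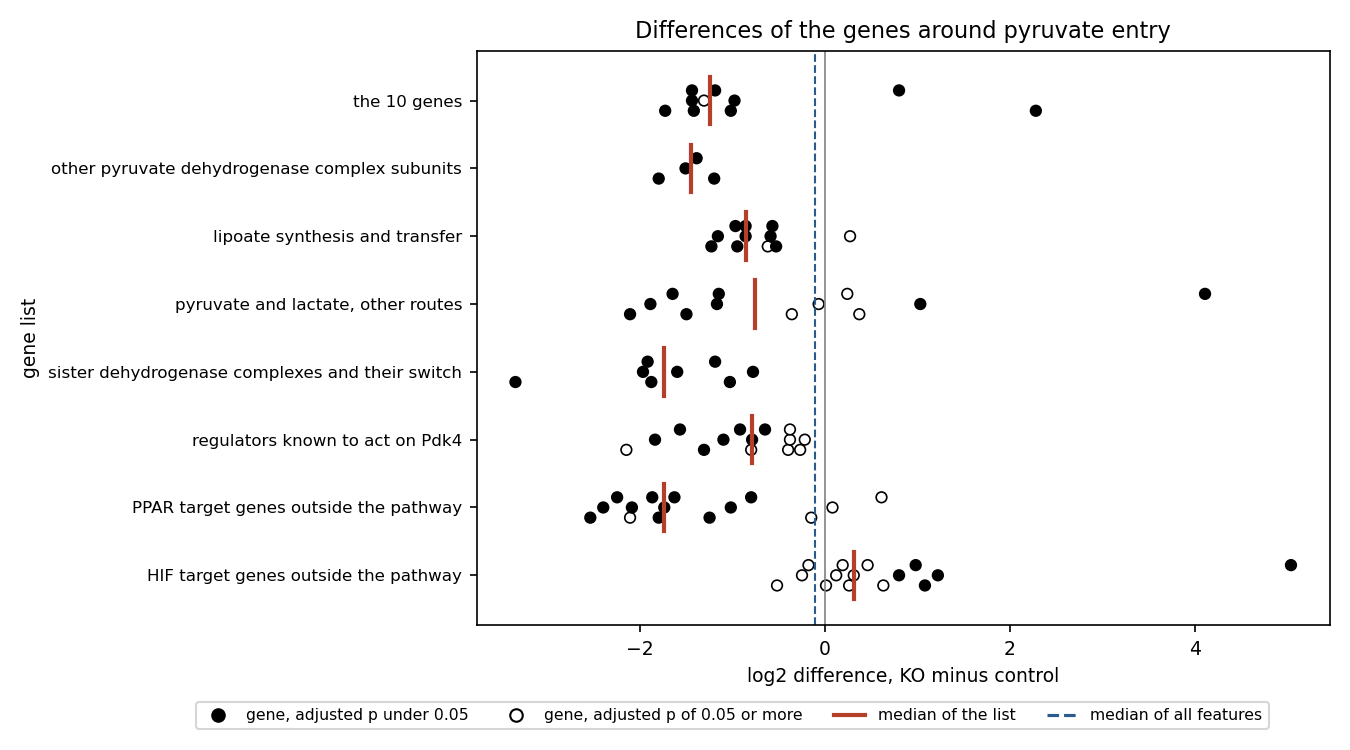
Difference between KO-labelled and control hearts in log2 units (horizontal axis) for the genes of each list, with filled points for an adjusted p under 0.05, red bars for list medians and a dashed line for the median of all features. The list of complex subunits, which includes Pdpr, and that of sister complexes lie wholly left of 0, at medians of -1.45 and -1.74.

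The genes whose level followed each kinase most closely over the 6 hearts, among 12803 candidates, were Nsd3 for Pdk1 (Pearson r 0.9954), Vegfb for Pdk2 (0.9996), Twist2 for Pdk3 (0.9989) and Igsf1 for Pdk4 (0.9974). The next closest were Cyth3 (0.9947) and Sipa1 (0.9943) for Pdk1, Pfkm (0.9995) and Wipf3 (0.9995) for Pdk2, Spink2 (0.9979) and Gramd1c (0.9979) for Pdk3, and Ecm2 (0.9951) and Npr2 (0.9932) for Pdk4. These correlations are descriptions over hearts that fall in 2 groups and share the arrays and the scaling, and they carry no test.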

How the data were processed

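RNA of 6 mouse hearts was read on 1-colour Agilent arrays. The deposited scanner files give intensity values per spot, background-subtracted with Agilent Feature Extraction 11.0.1.1 per the file headers. A table of log2 values that the authors deposited (R 3.1.3 per the submitters' processing notes) served as an alternative, with a normalization not given in the sources used. In 94.2% of its rows the median was 0, and for features tested here 95.9% of the differences from the first array matched those of the scanner plus 1 constant an array, both within 0.001; the column medians were -0.04, -0.05 and -0.02 for KO-labelled and 0.09, -0.02 and 0.07 for control arrays, and what sets the remaining values is unknown. The labels' protocols disagree on the RNA kit: one names columns for hearts, the other a blood kit with globin removal.

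Outlier spots by the deposited flags were dropped, the rest averaged per probe as log2 processed signal, and each array was centred on its 75th percentile. Probes well above background on all 3 arrays of a group were kept, and the brightest probe stood for a gene. Probes were named by RefSeq accession (26551 of 55608 named). The model was limma 3.58.1 in R 4.3.3, 2-sided, with Benjamini-Hochberg adjustment. The alternatives were other background correction, scaling, filters, probe choice, variance models, a replicate block and leaving out each heart; normexp (offset 50) used median signals, as the files hold no mean signals. The model was tested on simulated data.

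Genes named were the 10 members, Egln1, Egln3, the other complex subunits with Pdpr, up to 4 passing genes of smallest p per list, and the 3 genes most like each kinase. Others are said to be named after their values were seen. Members and lists were chosen with earlier results of these data known. One list of genes is not reported here.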

Additional observations from a re-analysis of the deposited data

How the results depend on the processing

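The limits come first. There were 3 hearts a group on 1 slide, with position and group in step, so a slide block was not run. Probes of low signal, such as Pdk3 in control hearts and the second Pdp2 probe, are least precise. The calls of the 10 genes kept their side of the threshold under the settings tried, except as follows. On the cardiomyocyte-marker scale, added after the data were seen, 12482 features and 5 members passed, and Pdp1 (-0.23), Pdha1 (-0.44), Pdhb (-0.69) and Mpc1 (-0.27) lost the call. Without a filter on dim probes 4345 features passed. Leaving out each heart gave 3987 to 8672 features, Pdk4 differences of -1.69 to -0.75, of which only that without KO replicate 3 passed, and ratios of -0.44 to 0.14 for Pdk2 over Pdk4 and of -0.12 to 0.56 for Pdha1 over Pdhb. With normexp the Pdk2 over Pdk3 ratio was -2.99. The share of called features that were higher was 41.1% as reported, 55.3% with cyclic loess and 60.3% with spike-in scaling, and the median of all features was -0.11, 0.02 and 0.13 in the same order, 0.22 with no scaling and 0.64 on the cardiomyocyte scale. The hearts share replicate numbers, but same-numbered hearts did not deviate together (correlations of -0.15, -0.12 and -0.08). With a replicate block 4862 features passed, and Pdp1 (-0.98, adjusted p = 0.0526) and Esrrg (adjusted p = 0.0521) did not. The cause of these changes was not tested.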

Other observations

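Adipocyte markers, of which 5 of 7 were tested and none passed, varied between hearts rather than between groups. Their summed scaled signal was 3.22, 257 and 6.88 in KO-labelled hearts and 3.68, 17.8 and 96.5 in control hearts, with Lep and Ucp1 not well above background on every array of either group. Skeletal muscle markers were mixed: of 4 tested 3 were higher and 1 was lower. Their sums were 301 to 409 in KO-labelled hearts and 167 to 261 in control hearts. The 2 brightest, named after their values were seen, went opposite ways and weigh most in the sums: Acta1 differed by 2.24 and Ckm by -2.01. Of 7 endothelial markers none passed, of 7 smooth muscle and pericyte markers 2 were higher and 3 lower, of 3 lymphocyte markers tested 1 was higher, of 5 erythroid markers tested 1 was lower, and of 4 epithelial markers tested 1 was higher. The part of these markers in the results on pyruvate entry was not tested.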
